A study of Rattus norvegicus with 38 samples.

Results

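The DMRs described here are the 4 regions, of 3417 in the series, that were assigned to Jak3, Pik3cd, Dapp1 and Cd83, genes of JAK and PI3K signalling and of leukocyte activation, with 1 DMR per gene. A DMR is a CpG, or a run of neighbouring CpGs, whose methylation differed between 2 swabs of the same pup. The genes were picked from lists built on these pups: Jak3 from the DMRs with negative weights on a principal component of the controls that followed age, and Pik3cd, Dapp1 and Cd83 from the DMRs with positive weights on the fourth principal component of the change within pups, which followed rearing. The change with age at all 4 DMRs, and the contrast of LBNs with controls at Pik3cd, Dapp1 and Cd83, are therefore given as descriptions without a test.

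Buccal swabs, which carry a mixture of epithelial cells and leukocytes, were taken from 19 Sprague Dawley rat pups on postnatal day 2 (P2) and again on P10, and CpG methylation was read by reduced representation bisulfite sequencing (RRBS). Controls were reared in standard bedded cages, and LBNs were reared in cages with limited bedding and nesting material, a model of early-life adversity, between the swabs. Cohort 1 held 6 controls and 5 LBNs, and cohort 2 held 4 controls and 4 LBNs. The P2 swab was taken before the pups were randomized, so P2 differences between the groups preceded the rearing. Pups of several litters were mixed among dams, and the sex, dam and cage of a pup are not in the labels, so pups of a group may have shared a dam. The value of a DMR is the percentage of methylated reads in a sample, as deposited and before any correction for cohort, and the reads behind it are not given, so depth is unknown. In a mixed swab, a shift in the share of a cell type and a shift of methylation within cells cannot be told apart.

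Cytokine receptors that share the common gamma chain signal through the tyrosine kinase Jak3, which phosphorylates STAT proteins, and loss of Jak3 blocks lymphocyte development. Pik3cd encodes the delta catalytic subunit of PI3K, which is enriched in leukocytes and makes the membrane lipid PIP3 below antigen and cytokine receptors. Dapp1 is an adaptor that binds that lipid and acts below the B cell receptor, and Cd83 is a surface protein of mature dendritic cells and activated lymphocytes. Methylation of a CpG near a gene can differ between cell types, and it is not a measure of the transcript.

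The Jak3 DMR lay in an exon (rn6 chr16:20116384-20116399). The other 3 were classed as intergenic and linked to their genes in the tables of the study, which for its gene lists kept intergenic CpGs within 20 kb of a start site, a distance not measured here. They were the Pik3cd DMR (rn6 chr5:166629752-166629792), the Dapp1 DMR (rn6 chr2:243244834-243244835) and the Cd83 DMR (rn6 chr17:24402500-24402501). The Dapp1 and Cd83 DMRs were single CpG positions, as were 73.5% of all DMRs. None of the 4 was classed as a promoter. The 250 bases before the RefSeq start of 3 of the genes (build GRCr8) are shown because they differ in CpG content, with each CpG in capitals. Their build is not that of the DMRs, so the distance between them was not measured, and no sequence of Jak3 was matched.

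The Pik3cd window (GRCr8 chr5:165403969-165404218, minus strand, written 5′ to 3′ along the gene) held 2 CpGs:
Pik3cd: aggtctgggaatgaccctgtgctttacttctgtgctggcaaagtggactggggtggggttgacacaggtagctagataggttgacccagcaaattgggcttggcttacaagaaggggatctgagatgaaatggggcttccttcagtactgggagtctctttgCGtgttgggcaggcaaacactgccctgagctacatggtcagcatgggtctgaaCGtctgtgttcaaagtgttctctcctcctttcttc
The Dapp1 window (GRCr8 chr2:229148844-229149093, minus strand) held 3 CpGs:
Dapp1: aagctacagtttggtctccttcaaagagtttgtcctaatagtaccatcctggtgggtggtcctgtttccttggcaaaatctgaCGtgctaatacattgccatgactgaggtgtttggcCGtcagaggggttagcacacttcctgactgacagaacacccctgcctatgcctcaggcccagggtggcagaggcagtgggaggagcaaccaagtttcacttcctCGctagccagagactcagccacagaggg
The Cd83 window (GRCr8 chr17:21112678-21112927, minus strand) held 26 CpGs:
Cd83: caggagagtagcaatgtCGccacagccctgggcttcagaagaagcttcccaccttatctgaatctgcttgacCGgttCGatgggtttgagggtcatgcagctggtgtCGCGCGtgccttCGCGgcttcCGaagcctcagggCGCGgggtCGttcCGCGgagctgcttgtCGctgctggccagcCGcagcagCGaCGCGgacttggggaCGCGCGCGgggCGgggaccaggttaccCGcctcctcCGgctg

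Cd83 thus had a CpG-rich upstream window, with more CpGs than 91.4% of 33469 RefSeq windows of the same length. Pik3cd and Dapp1 had CpG-poor windows, with more CpGs than 18.1% and 28.6% of them. The letters CCGG, which the RRBS enzyme MspI cuts and which read the same on both strands, occurred 2 times in the Cd83 window and 0 times in the Pik3cd and Dapp1 windows, against at least once in 46.2% of all windows.

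Between P2 and P10, methylation moved upward at the 2 kinase DMRs and downward at Dapp1 and Cd83. Over the 19 pups, the Jak3 DMR had a mean level of 43.8% ± 9.46 (SD, n = 19) at P2 and 55.8% ± 16.3 at P10, and it was higher at P10 in 16 pups. The Pik3cd DMR went from 21.6% ± 10.8 to 31.4% ± 15.4 and was higher in 13 of 19 pups. The Dapp1 DMR went from 54.4% ± 9.81 to 42.8% ± 13.98 and was lower in 15 of 19 pups, and the Cd83 DMR went from 44.8% ± 17.3 to 30.9% ± 11.4 and was lower in 14 of 19. In the limma fit for age 43.7% of all DMRs were called, a contrast for which the DMRs had been chosen, so no call is given for the 4. Pik3cd was the low-methylated DMR of the 4: its mean P2 level lay above that of only 8.87% of DMRs. Its δ methylation, log2 of P10 over P2 of the same pup, had an SD of 1.05 over pups, above that of 94.4% of the 3354 DMRs with no level of 0. At Cd83 it was the P2 level whose SD over pups ranked high, above 95.0% of DMRs, whereas the SDs of δ methylation of Jak3 and Dapp1, 0.55 at each, were close to the median of all DMRs, 0.57.

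**Figure D1:**
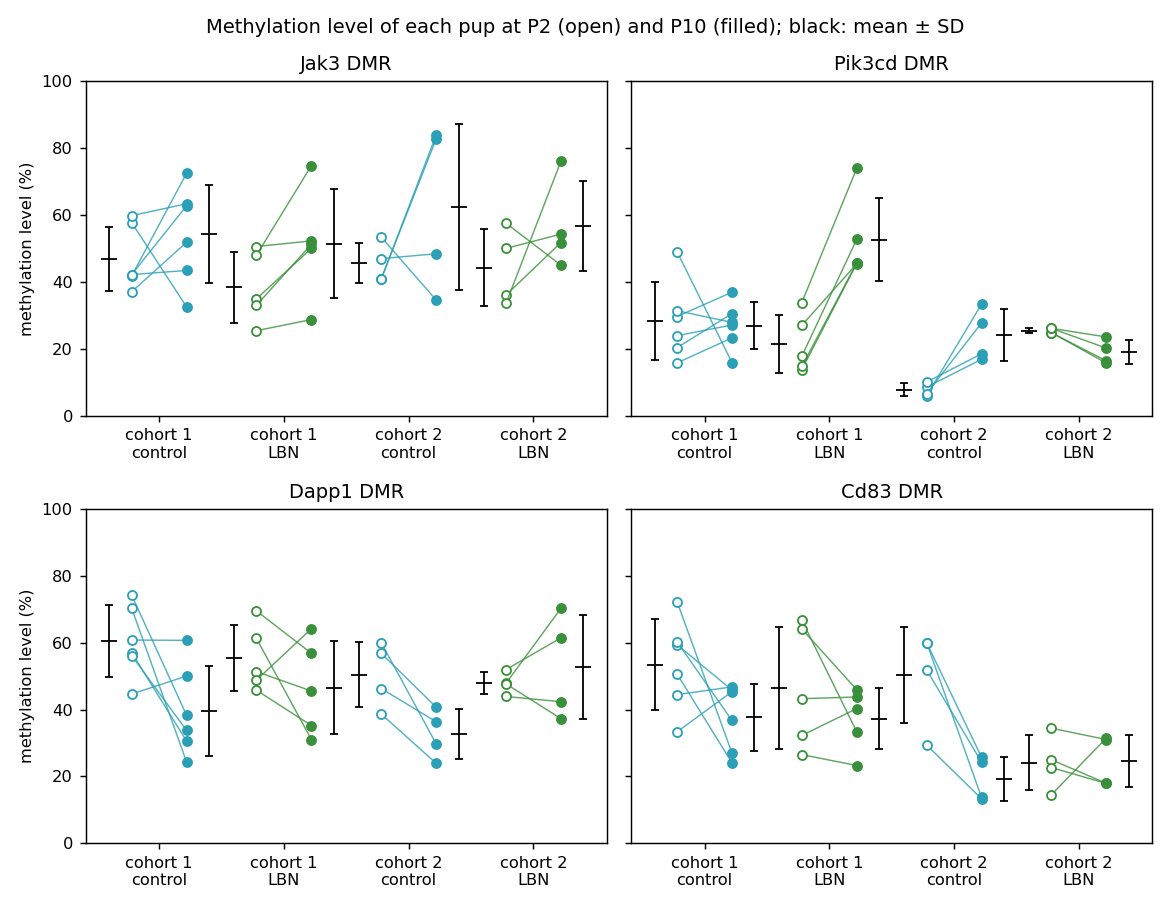
Methylation level in percent (vertical axis) of the 4 DMRs in each of 19 pups, by cohort and rearing group; lines join the P2 value (open) to the P10 value (filled) of a pup, and black bars are the mean ± SD of the group. At Pik3cd, the 4 cohort 2 controls sit between 5.92% and 10.1% at P2, below all other pups, and the 5 cohort 1 LBNs sit between 45.4% and 73.9% at P10, above all other pups.

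At the Pik3cd DMR the LBNs of the 2 cohorts moved in opposite ways, whereas controls were mixed in cohort 1 (4 of 6 rose) and all rose in cohort 2. In cohort 1, the controls ranged from 15.8% to 49.0% (median 26.8%) at P2 and from 15.9% to 36.9% (median 27.5%) at P10. The 5 LBNs of cohort 1 had 17.8%, 13.8%, 27.0%, 14.8% and 33.8% at P2 and 52.7%, 45.5%, 45.4%, 45.6% and 73.9% at P10, in the same order of pups. All 5 rose, and at P10 all of them were above every cohort 1 control, whereas the P2 values overlapped. LBNs of cohort 1 lay above all its controls at P10 at 2.72% of DMRs.

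In cohort 2 the pattern was turned. The 4 controls had P2 levels of 5.92%, 8.54%, 10.1% and 6.59% and P10 levels of 33.3%, 16.8%, 18.5% and 27.7%. The 4 LBNs had P2 levels of 24.8%, 24.9%, 26.1% and 26.1%, a range of little more than 1 percentage point, and P10 levels of 16.4%, 15.7%, 23.5% and 20.2%. Every control of cohort 2 gained methylation and every LBN lost it. The 2 groups did not overlap at P2, before randomization, where the later LBNs were higher, and they overlapped at P10. Such a separation at P2 was common in cohort 2: later LBNs lay above all controls at 10.7% of DMRs and below them at 13.3%.

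δ methylation at Pik3cd was −0.03 ± 0.83 (SD, n = 6) in the cohort 1 controls and 1.36 ± 0.41 (n = 5) in the cohort 1 LBNs, a difference of 1.38. In cohort 2 it was 1.61 ± 0.80 (n = 4) in controls and −0.44 ± 0.23 (n = 4) in LBNs, a difference of −2.05. The LBNs lay above every control in cohort 1, as at 0.328% of DMRs, and below every control in cohort 2, as at 6.5% of DMRs. Over both cohorts the difference was −0.07 (SE 0.48), and its direction depended on the scale: it was 0.26 as a log odds difference and 9.17 in percentage points, and it ran from −0.32 to 0.17 without 1 pup at a time.

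Whether LBNs minus controls differed between the cohorts was tested for each DMR as the interaction of rearing and cohort in δ methylation. At Pik3cd the cohort 2 difference minus the cohort 1 difference was −3.43 (SE 0.57, 95% confidence interval −4.63 to −2.24, limma adjusted p = 0.0322). It was the only DMR called, 1 of 3354 or 0.0298%, although 840 had an unadjusted p under 0.05, and the next DMR in rank had an adjusted p of 0.0755. Without 1 pup at a time the estimate stayed between −3.68 and −3.11, but the adjusted p ranged from 0.00538 to 0.126, and the call was lost without any 1 of 13 of the 19 pups. The list from which Pik3cd came had used δ methylation of the same pups in both cohorts, so the DMR was not independent of these values; the p value, adjusted over all 3354 DMRs, gives its place among them and is no independent evidence. LBNs minus controls had opposite signs in the 2 cohorts at 2423 of the 3354 DMRs (72.2%), and the size at Pik3cd exceeded that of 99.9% of DMRs.

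The ages at which Pik3cd separated the groups also differed between cohorts. On the log2 scale of the level, where δ methylation is exactly the P10 value minus the P2 value, 85.0% of the cohort 2 difference came from P2, with LBNs 1.74 above controls at P2 and −0.31 relative to them at P10. In cohort 1, 71.2% came from P10, with LBNs at −0.40 relative to controls at P2 and 0.99 above them at P10. Tested apart on the log odds of the level, log2((percent + 1)/(100 − percent + 1)), the interaction was 2.44 (SE 0.58, limma adjusted p = 0.156) at P2 and −2.01 (SE 0.56, adjusted p = 0.154) at P10, and neither passed. No DMR did at either age (0% called, with 319 and 808 at an unadjusted p under 0.05).

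**Figure D2:**
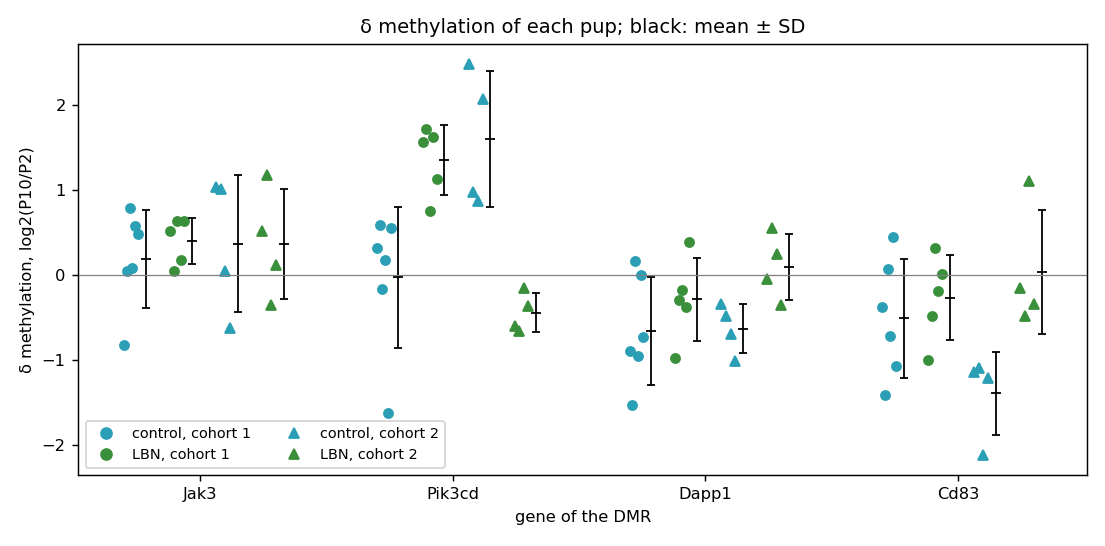
δ methylation, log2 of P10 over P2 (vertical axis), of each pup at the 4 DMRs; circles are cohort 1, triangles cohort 2, blue controls and green LBNs, and black bars are the mean ± SD of the group. At Pik3cd, LBNs lie above all controls in cohort 1 and below all controls in cohort 2; at Cd83 in cohort 2 LBNs lie above all controls.

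LBNs minus controls in δ methylation had the same sign in both cohorts at Cd83 and Dapp1. Both came from a list built on δ methylation of these pups in both cohorts, so this is a description. At Cd83, the cohort 1 controls ranged from 33.3% to 72.2% (median 55.0%) at P2 and from 24.1% to 46.8% (median 41.0%) at P10. The cohort 1 LBNs had 66.7%, 64.1%, 32.3%, 26.5% and 43.2% at P2 and 33.3%, 45.9%, 40.3%, 23.3% and 43.8% at P10, and the groups overlapped at both ages. In cohort 2 the controls had 29.4%, 51.9%, 60.0% and 60.0% at P2 and 13.3%, 24.3%, 13.8% and 25.8% at P10, a loss in all 4 pups. The cohort 2 LBNs had 34.4%, 25.0%, 14.5% and 22.7% at P2 and 31.0%, 17.9%, 31.5% and 17.9% at P10. These LBNs were thus already low at P2, 24.2% ± 8.18 against 50.3% ± 14.5 in the controls (SD, n = 4 each), and at P10 their level was 24.6% ± 7.69 against 19.3% ± 6.67.

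δ methylation of Cd83 in cohort 2 was −1.14, −1.09, −2.13 and −1.22 in the controls and −0.15, −0.48, 1.11 and −0.34 in the LBNs. The LBNs lay above every control, as at 6.95% of DMRs in that cohort. The difference of the means was 1.43 in cohort 2 and 0.24 in cohort 1, and of the former 74.7% came from P2. The difference between cohorts was not called at Cd83 (interaction 1.19, SE 0.55, 95% confidence interval 0.03 to 2.34, limma adjusted p = 0.187). As at Pik3cd, the choice of the DMR had used the same values, so the test is no independent evidence of agreement between cohorts.

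The other PI3K member, the lipid-binding adaptor Dapp1, differed from Cd83 in the age that carried its contrast. Its cohort 1 controls ranged from 44.6% to 74.2% (median 58.9%) at P2 and from 24.3% to 60.7% (median 36.0%) at P10. The cohort 1 LBNs had 61.2%, 69.5%, 51.3%, 45.8% and 48.8% at P2 and 31.0%, 56.8%, 45.5%, 35.2% and 64.1% at P10, and the groups overlapped at both ages. Controls of cohort 2 had 46.3%, 56.8%, 38.7% and 60.0% at P2 and 36.4%, 40.7%, 23.9% and 29.8% at P10, and all 4 fell. LBNs of cohort 2 had 43.9%, 47.8%, 51.9% and 47.7% at P2 and 42.3%, 70.2%, 61.4% and 37.3% at P10, and only 2 of the 4 fell. The groups overlapped, narrowly at P10, where the highest control had 40.7% and the lowest LBN 37.3%. LBNs minus controls in δ methylation came to 0.37 in cohort 1 and 0.73 in cohort 2, with 66.0% and 92.1% of the difference from P10. The interaction with cohort at Dapp1 was 0.36 (SE 0.45, 95% confidence interval −0.59 to 1.30, limma adjusted p = 0.617), with the same limit as at Cd83.

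**Figure D3:**
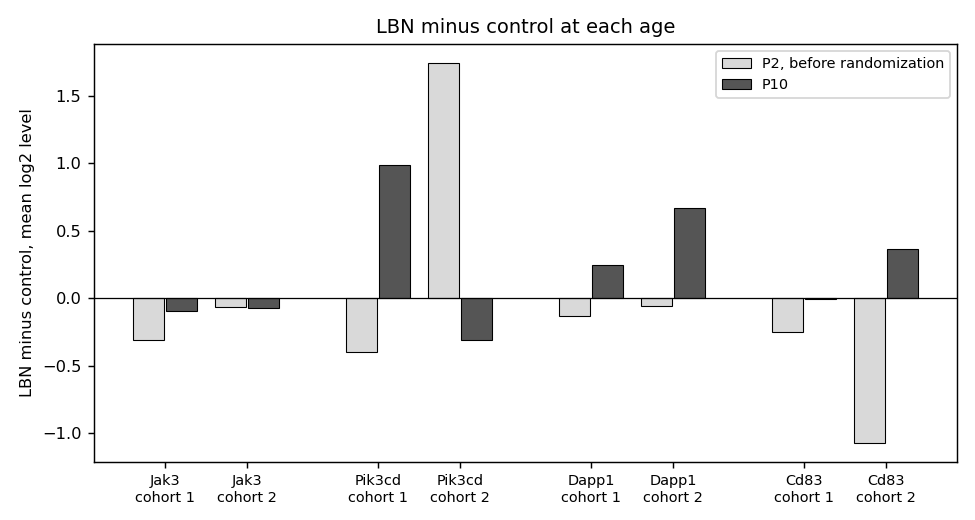
LBNs minus controls in the mean log2 level at P2 (light bars, before randomization) and at P10 (dark bars), for each DMR and cohort. The largest bar is that of Pik3cd in cohort 2 at P2 (1.74); at Dapp1 the P10 bars are longer than the P2 bars in both cohorts, and at Cd83 the P2 bars are.

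Jak3 was picked from controls by age and not by rearing, so LBNs were tested against controls there, with the reserve that the controls had been chosen for their change. Cohort 1 controls ranged from 37.0% to 59.8% (median 42.2%) at P2 and from 32.5% to 72.4% (median 57.3%) at P10. LBNs of cohort 1 had 34.9%, 50.5%, 33.0%, 25.4% and 48.0% at P2 and 50.0%, 52.2%, 51.2%, 28.7% and 74.7% at P10, a rise in all 5. In cohort 2 the controls had 40.8%, 40.9%, 46.9% and 53.4% at P2 and 83.8%, 82.7%, 48.4% and 34.6% at P10. Among these controls 2 rose to above 80%, 1 changed little and 1 fell. The cohort 2 LBNs had 36.0%, 33.5%, 57.5% and 50.0% at P2 and 51.7%, 76.0%, 45.0% and 54.3% at P10. Controls and LBNs overlapped at both ages in both cohorts.

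No difference between LBNs and controls was detected at Jak3. δ methylation was 0.26 ± 0.64 (SD, n = 10) in controls and 0.39 ± 0.44 (n = 9) in LBNs, with a difference of 0.12 after adjustment for cohort (SE 0.25, 95% confidence interval −0.41 to 0.65, limma adjusted p = 0.9999). On the log odds of the level the difference was −0.33 (SE 0.28, limma adjusted p = 0.484) at P2 and −0.29 (SE 0.43, limma adjusted p = 0.733) at P10. The share of DMRs called in these 3 comparisons was 0%, although 109, 457 and 337 DMRs had an unadjusted p under 0.05 for δ methylation, P2 and P10. The exact permutation p values at Jak3 were 0.651, 0.218 and 0.55. The interaction with cohort was −0.21 (SE 0.52, limma adjusted p = 0.819).

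**Figure D4:**
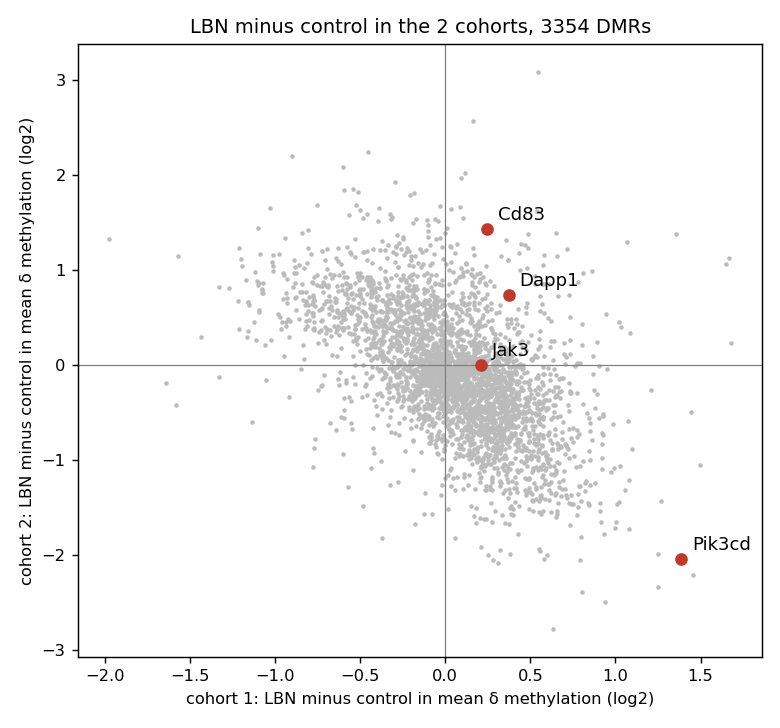
LBNs minus controls in mean δ methylation (log2) in cohort 1 (horizontal axis) and cohort 2 (vertical axis) for 3354 DMRs (grey points), with the 4 DMRs in red. Pik3cd lies at 1.38 and −2.05, at the lower right edge of the points; Dapp1 and Cd83 lie at the upper right, and Jak3 near 0.

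The cohorts differed in level at P10 at 2 of the 4 DMRs, against 49.2% of all DMRs. Cd83 had 37.5% ± 9.19 (SD, n = 11) in cohort 1 and 21.9% ± 7.24 (n = 8) in cohort 2, −1.10 on the log odds scale (SE 0.29, limma adjusted p = 0.00309). Pik3cd had 38.6% ± 16.3 and 21.5% ± 6.26, −1.18 (SE 0.35, limma adjusted p = 0.00626). For Pik3cd the difference was −2.23 between LBNs alone (limma adjusted p = 0.000325) and −0.22 between controls alone (limma adjusted p = 0.769); the test of the one against the other is the P10 interaction given above, which did not pass. For Cd83 it was −1.32 between controls (limma adjusted p = 0.0494) and −0.86 between LBNs (limma adjusted p = 0.0829). Of all 3417 DMRs, 1820 were called between LBNs alone and 402 between controls alone. Dapp1 (−0.03, SE 0.35, limma adjusted p = 0.95) and Jak3 (0.48, SE 0.43, limma adjusted p = 0.377) were not called. Both cohort differences that passed were lower in cohort 2, as were 42.1% of all DMRs.

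At P2 0 of the 4 DMRs were called between cohorts, against 12.6% of all DMRs, and 0 were called for δ methylation, against 6.2%. The P2 estimates by limma were −0.88 (adjusted p = 0.114) at Pik3cd, −0.80 (adjusted p = 0.162) at Cd83, −0.52 (adjusted p = 0.193) at Dapp1 and 0.14 (adjusted p = 0.768) at Jak3. Between controls alone Pik3cd was lower in cohort 2 at P2, 7.78% ± 1.89 (SD, n = 4) against 28.3% ± 11.7 (n = 6), by −2.05 on the log odds scale (limma adjusted p = 0.0136). That fit called 366 of 3417 DMRs. Between LBNs the means were 25.5% ± 0.741 and 21.4% ± 8.67 (difference 0.39, limma adjusted p = 0.758), and the P2 interaction did not pass. For δ methylation the cohort differences, from limma with their adjusted p, were 0.07 (0.912) at Jak3, −0.02 (0.989) at Pik3cd, 0.20 (0.684) at Dapp1 and −0.31 (0.614) at Cd83. The value at Pik3cd joined opposite differences: −1.80 between LBNs alone (limma adjusted p = 0.00794) and 1.63 between controls alone (limma adjusted p = 0.241). Both are parts of the Pik3cd interaction given above, in the δ methylation behind the list, so they are no independent evidence. Of 3354 DMRs, 842 were called for δ methylation between LBNs alone and 0 between controls alone.

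Group means of DMRs at other genes, taken from the lists that the study chose on these samples, are given here beside these differences. Whether they varied with the 4 DMRs from pup to pup was not tested. The mean level of 10 DMRs at epithelial genes (Epcam, Dsc3, Krt42, Krt75, Calml3, Aqp3, Itga6, Sdc1, Kazn and Liph) at P10 was 44.1% ± 3.77 (range 40.2% to 49.3%) in the cohort 1 LBNs and 33.5% ± 8.06 (23.0% to 43.6%) in the cohort 1 controls, and 14.5% ± 4.37 and 16.4% ± 3.45 in the LBNs and controls of cohort 2. Of these 10, 9 were called lower in cohort 2 at P10, against 42.1% of all DMRs, and 3 at P2, against 9.31%. Their mean P2 level was 26.8% ± 5.49 and 27.6% ± 3.92 in controls and later LBNs of cohort 2, and 39.8% ± 6.30 and 41.7% ± 9.79 in those of cohort 1. Leukocyte genes held 13 DMRs (Cd37, Cxcr4, Cxcr1, Jaml, Lsp1, Runx1, Irf8, Wipf1, Gpr132, P2ry14, Sema4d and S1pr5). Their mean P2 level was 31.8% ± 1.43 (29.7% to 32.8%) in the later LBNs of cohort 2 and 38.5% ± 2.29 (35.6% to 40.4%) in its controls, which did not overlap. Single DMRs separated at P2 in cohort 2 at 10.7% (later LBNs above) and 13.3% (below) of all DMRs. Most of the 13 came from the list built on δ methylation of these pups, which contains the P2 level, so the separation is a description. Between the cohorts at P10 4 of the 13 were called higher and 5 lower, against 7.11% and 42.1% of all DMRs. The mean over all DMRs at P10 was 42.7% ± 1.82 and 42.2% ± 3.19 in cohort 2 controls and LBNs, and 50.1% ± 0.985 and 52.7% ± 1.47 in cohort 1. The part of these shifts in the values at Pik3cd, Cd83 and Dapp1 was not tested.

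Among pups, the 4 DMRs did not move as a unit. δ methylation of Dapp1 and Cd83, centred by cohort, moved together with r = 0.735 and rho = 0.796 over 19 pups (0.852 in cohort 1 and 0.683 in cohort 2, and 0.716 without the 2 pups farthest from the median). This is a description, since both came from the positive side of the same component. Pik3cd came from that side too, yet its r with Dapp1 was −0.387 and with Cd83 −0.495. Jak3 had r of 0.481 and rho of 0.514 with Dapp1 (permutation p = 0.0375 and 0.0255), and adjusted over the 12 relations computed these did not pass (0.101 and 0.121). Its r was 0.0246 with Cd83 and −0.0981 with Pik3cd (rho 0.161 and −0.0421; permutation p of r 0.932 and 0.711). For P2 levels r ran from −0.543 (Cd83 with Pik3cd) to 0.51 (Dapp1 with Cd83), and none of the 6 passed, with adjusted permutation p of 0.101 or more.

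The DMRs whose δ methylation over the 19 pups was most like that of a member, out of 3354, were mostly without a listed gene. For Dapp1 they were in an exon of Noct (r = 0.910), an exon of Rai1 (r = 0.908) and the promoter of Parp16 (r = 0.868). The closest for Pik3cd were at rn6 chr3:138247728-138247729 (r = 0.900), chr10:55999669-55999683 (r = 0.898) and chr7:11255242-11255267 (r = 0.889). For Jak3 they were at chr20:18876229-18876241 (r = 0.888), chr13:88349259-88349260 (r = 0.863) and chr12:1113129-1113130 (r = 0.855), and for Cd83 at chr5:140804800-140804801 (r = 0.858), chr7:139382602-139382611 (r = 0.841) and chr13:52499936-52499937 (r = 0.815). Each is among the 3 largest correlations of a member with all other DMRs.

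Near the members on the chromosome, methylation did not simply follow them. Within 100 kb, Jak3 had 4 other DMRs, at 7.1, 20.1, 20.9 and 34.5 kb. Their r with Jak3 in δ methylation ran from −0.0647 to 0.163, and the nearest was lower at P10 in 18 of 19 pups (55.3% ± 10.0 to 32.6% ± 10.997), opposite to Jak3. Pik3cd had 2, with r of −0.674 at 46.5 kb and 0.608 at 77.8 kb. Dapp1 and Cd83 had 0. LBNs minus controls in δ methylation changed sign between cohorts 1 and 2, as at Pik3cd, at the Jak3 neighbours 20.1 kb (0.91 and −1.55) and 20.9 kb away (0.56 and −1.41). At 34.5 kb the signs were turned (−0.25 and 0.91), and at 7.1 kb both were positive (0.32 and 0.32). Of the Pik3cd neighbours, that at 77.8 kb changed sign (0.57 and −0.21) and that at 46.5 kb did not (0.04 and 0.48).

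The other DMRs of the same pathways described here, 7 in all, came from the lists that the study chose on these samples, so their directions are no independent evidence. In the JAK and cytokine list these were Il20rb, a receptor subunit for IL-20 family cytokines, Osm, which encodes oncostatin M, and Kit, the stem cell factor receptor, which is also in the PI3K list. The PI3K list held in addition the kinases Sgk1 and Prkcz, the mTOR complex component Prr5l and the forkhead factor Foxo6. At P10, 1 of the 7 was called higher in cohort 2, Foxo6 (0.70 on the log odds scale, limma adjusted p = 0.0392), and 2 lower, Il20rb (−1.51) and Prr5l (−3.32), with limma adjusted p of 0.000319 and 1.94e-07, so that 3 of 7 were called against 49.2% of all DMRs. At P2, Prr5l (−2.31, limma adjusted p = 0.00207) was the 1 called, against 12.6% of all DMRs. For δ methylation 0 of the 7 were called between cohorts, by the limma adjusted p, against 6.2% of all DMRs.

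For the interaction of rearing and cohort in δ methylation, 0 of the 7 were called and 6 had a positive estimate, the sign opposite to Pik3cd. The median estimate was 0.47 for the 7 and −0.18 over all DMRs, so the negative sign of Pik3cd was the more common one. LBNs minus controls had opposite signs in the 2 cohorts at 4 of the 7, against 72.2% of all DMRs, with LBNs lower in cohort 1 and higher in cohort 2 at each: Osm (−0.88 and 0.71), Sgk1 (−1.08 and 0.76), Foxo6 (−0.67 and 0.62) and Prkcz (−0.27 and 0.20). Their limma adjusted p for the interaction lay between 0.12 and 0.66. Pik3cd ran opposite to these 4, with LBNs higher in cohort 1 and lower in cohort 2. Prr5l, like Dapp1 and Cd83, had LBNs higher in both cohorts (1.07 and 1.30), and Il20rb and Kit had LBNs lower in both.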

How the data were processed

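RRBS of buccal swabs was measured in 38 samples, P2 and P10 of 19 pups. The authors trimmed reads with Trim Galore 0.4.3, aligned them to rn6 with Bismark 0.16.3, required more than 10 reads per CpG, tested each CpG between both swabs of a pup, and joined CpGs up to 100 base pairs apart into DMRs. They deposited the methylation percent of each DMR and sample, uncorrected for cohort. Read numbers are not given, so single values carry no interval and the coverage minimum could not be varied.

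Of 3417 DMRs, 63 with a level of 0 in a sample were left out of δ methylation, log2(P10/P2). Levels were tested as log2((percent + 1)/(100 − percent + 1)). In R 4.3.3, lmFit and eBayes of limma 3.58.1 were fitted over all DMRs, with rearing and cohort, or their product, as terms and the pup as block for age; p values were adjusted by Benjamini-Hochberg at 0.05. Tests were two-sided. The fits for cohort differences, and for LBNs against controls in δ methylation, were tested on simulated data. The interaction fits, the age fit and LBNs against controls in level were not. In the simulations both swabs of a pup were drawn independently. A minimum recovery was required only for cohort differences in level, so passing them does not show the power of the δ methylation fits. P values measure the spread between pups, taken as independent. Exact permutation tests enumerated 32340 arrangements within cohorts, or 75582 between cohorts. Correlations used 100000 permutations within cohort, adjusted over 12.

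The members and gene lists were chosen with earlier results of these data known. Named were the 4 members, the pathway DMRs (1 of the list is not reported here), DMRs within 100 kb and the 3 DMRs most like each member in δ methylation. Genes and site classes came from the study's supplementary tables, promoters from RefSeq (GRCr8), where 3 of the 4 genes matched. In a repeat of the principal component analysis, weights on the fourth component were 0.0423 for Dapp1, 0.0340 for Cd83, 0.0279 for Pik3cd and 0.00734 for Jak3; at a limit of 0.025 the DMR just inside had 0.02505 (mean δ methylation −0.63 in controls, −0.42 in LBNs) and the one just outside, at Etv4, 0.02492 (−0.75 and −0.23).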

Additional observations from a re-analysis of the deposited data

Results flagged for a closer look

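In 72 tests of a sample standing apart within a group of 4 to 10 pups (Dixon's test at 95%, which chance flags in about 1 of 20 groups), 3 values were flagged. At Pik3cd, the cohort 1 control C9 had a δ methylation of −1.63, from 49.0% at P2 to 15.9% at P10, far below the other 5 controls. Without C9 the difference of LBNs from controls in cohort 1 was 1.06 in place of 1.38, LBNs still lay above all controls, and the interaction with cohort was −3.11 (limma adjusted p = 0.00538). The cohort 1 LBN12 had a P10 level of 73.9% at Pik3cd, against 45.4% to 52.7% in the other LBNs of that cohort; without it the mean was 47.3% ± 3.61 (SD, n = 4) and the interaction −3.49 (limma adjusted p = 0.063). At Cd83, the cohort 2 control C8 had a δ methylation of −2.13, against −1.22 to −1.09 in the other 3 controls, and without it LBNs still lay above all controls, by 1.19 in place of 1.43.

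The contrast of LBNs with controls in δ methylation of Pik3cd differed between cohorts by −3.43 in the interaction test, from 1.38 in cohort 1 to −2.05 in cohort 2.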

How the results depend on the processing

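Refits of the Pik3cd interaction used the δ methylation behind the list it came from, so they are no independent evidence. Its sign and call were kept with a pseudocount of 1 in δ methylation, in percentage points and as a log odds difference. The same held with the median of each pup subtracted (added after seeing the data, as was the interaction on levels). The call was also kept with a minimum mean level of 10% and with a trended, robust variance, which cannot change the estimate. In these settings the limma adjusted p of the Pik3cd interaction ran from 0.0246 to 0.0409. Left out one at a time, 13 of 19 pups ended its call, C3, C6, C7, LBN2, LBN3, LBN9 and LBN12 of cohort 1 and C1, C11, LBN2, LBN4, LBN9 and LBN11 of cohort 2, and the estimate was −3.68 to −3.11; the number of DMRs called for the interaction was then 0 to 238, and 5 in percentage points and 2 as log odds. In cohort 1 alone LBNs minus controls was 1.38 at Pik3cd, in cohort 2 alone −2.05, and at Jak3 in cohort 2 alone −0.0016.

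Between the cohorts, δ methylation of Pik3cd differed by 1.63 in controls alone and by −1.80 in LBNs alone (limma adjusted p = 0.00794). These values are parts of its interaction and no independent evidence. With the median of each pup subtracted, the Pik3cd difference was 0.16. In LBNs alone the difference in δ methylation was −0.037 at Jak3 and 0.30 at Cd83. P2 levels in controls alone differed by −2.05 at Pik3cd (limma adjusted p = 0.0136) and −0.072 at Jak3, and in LBNs alone by 0.39 at Pik3cd. The exact permutation test over all pups at P2, without adjustment for rearing, gave −0.53 at Dapp1 (unadjusted p = 0.0454). Dapp1 was not called there by limma (adjusted p = 0.193). P10 levels differed by −0.22 at Pik3cd in controls alone, and in LBNs alone by −0.86 at Cd83 (limma adjusted p = 0.0829) and 0.38 at Dapp1. Over all pups, without adjustment for rearing, the P10 difference at Dapp1 was 0.0034 (exact permutation p = 0.993). The Jak3 interaction at P10 was 0.026 on log2(percent + 1). Without 1 pup at a time, cohort differences ranged from −0.042 to 0.22 (Jak3) and −0.32 to 0.16 (Pik3cd) in δ methylation, −1.02 to −0.70 (Pik3cd at P2, adjusted p = 0.0459 without LBN3 of cohort 1), and −0.22 to 0.11 (Dapp1 at P10), and interactions from −0.55 to 0.027 (Jak3), −0.060 to 0.38 (Dapp1 at P2) and −0.88 to 0.19 (Jak3 at P10). The causes were not tested.

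Counts over all DMRs also moved: cohort calls in δ methylation from 208 to 0 in controls and 842 in LBNs alone, 118 in percentage points, 82 as log odds, 89 with medians subtracted and 114 to 432 without 1 pup; at P2 from 432 to 3 in LBNs alone and 247 to 800 without 1 pup; at P10 from 1681 to 402 in controls alone. LBNs against controls went from 0 to 12 in δ methylation and 479 at P2 in cohort 2 alone, and 409 at P10 in cohort 1 alone. The P2 interaction gave 1 call on the percent and 3 on log2(percent + 1) in place of 0. Age gave 880 and 943 in cohorts 1 and 2 alone in place of 1493.

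Where a control and an LBN of a cohort carry the same number, the labels do not say whether it links them. Over 5 such pairs δ methylation, less group means, had a mean r of −0.0235 (−0.688 to 0.366), against 0.00262 over 41 other pairs. So few pairs, with so wide a range, cannot decide whether the number marks a link. A replicate block on these numbers left LBNs against controls uncalled at Jak3 (δ methylation 0.10, limma adjusted p = 0.999). For age, where no call is given for the 4 DMRs, leaving out the pup as block cannot change an estimate, since every pup gave both swabs. The number of DMRs called for age was then 1643 in place of 1493.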
